A study of Macaca mulatta with 30 samples.

Results

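The cystatin genes of the rhesus macaque (Macaca mulatta) are described here across 3 salivary glands, the pancreas and the liver. Members were the rows of the deposited expression table whose symbol is CST followed only by digits, together with CSTA and CSTB. There were 8 such rows among 21292 genes: CST2, CST3, CST5, CST6, CST7, CST11, CSTA and CSTB. Of these, 7 passed the filter on low values that 13550 genes of the table passed, and CST11 did not. The member rule refers to symbols alone.

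Each of 6 animals, 4 female and 2 male, gave 1 library from the parotid gland, the submandibular gland, the sublingual gland, the pancreas and the liver, 30 libraries in all. RNA came from 3 sections of flash-frozen tissue, each 30 µm thick, and was read in pairs of 150 bases. The labels give no treatment, genotype, strain or age, so all groups are taken as tissues of untreated animals only in the sense that no treatment is named. The stated comparisons were each salivary gland with the pancreas, and the pancreas with the liver, within the same animal. The other species of the study was not analysed here.

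Cystatins are inhibitors that bind tightly but reversibly to cysteine proteases of the papain family, above all the lysosomal cathepsins, and some of them also inhibit legumain. One branch of the family is secreted: its members carry a signal peptide, and several of them are abundant proteins of saliva. The other branch, the stefins CSTA and CSTB, stays in the cytosol, and CSTA is known as a component of the cornified envelope of squamous epithelia. The proteases themselves work mainly in lysosomes, where they degrade proteins and process antigens, but they can also leak or be released from cells.

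Values are TPM, a transcript level that accounts for transcript length and adds up to the same total in each library, so genes can be compared within a library, but depth is unknown. A library listed 16942 to 18574 genes above 0 TPM. Most libraries carried the markers of their labelled tissue, and the exceptions bear on several values below. In the submandibular library of animal 4 the summed level of 7 salivary serous markers was 1734 TPM, against 238211 to 334273 TPM in the other 5, while its 7 adipose markers summed to 8411 TPM, against 11.6 to 140 TPM. In the pancreas library of animal 4 the 11 acinar markers summed to 3490 TPM, against 157471 to 330630 TPM, and the adipose markers to 18344 TPM, against 21.2 to 1747 TPM. The 7 erythrocyte markers summed to 10384 TPM in that submandibular and 13447 TPM in that pancreas library, against 45.2 to 207 and 71.5 to 454 TPM in the other 5 of each tissue. The parotid library of animal 6 held 73341 TPM of 10 skeletal muscle markers, while the other 5 parotid libraries ranged from 5.06 to 6058 TPM. In the sublingual gland these muscle markers summed to 7001 and 16742 TPM in animals 1 and 5, against 23.5 to 261 TPM in the other 4. For the sublingual gland, the 8 squamous epithelium markers in the table summed to 33925 and 85980 TPM in animals 1 and 4 and to between 84.0 and 510 TPM in the other 4, and the 10 mucous markers summed to 34559 and 3592 TPM in those 2 libraries, against 192429 to 360267 TPM. In bulk tissue, fewer cells of a type and less RNA per cell cannot be told apart.

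Cystatin transcripts made up a far larger part of the submandibular gland's RNA than of any other tissue's. Together the 8 genes took 4.52, 10.04, 11.1, 0.874, 8.40 and 13.0% of all TPM in the submandibular libraries of animals 1 to 6, a mean of 7.997% ± 4.52 (SD, n = 6). They took 0.643% ± 0.199 in the parotid gland, 1.34% ± 1.82 in the sublingual gland, 0.365% ± 0.0989 in the liver and 0.182% ± 0.138 in the pancreas (each n = 6). The submandibular library of animal 4 lay with the other tissues, and the other 5 submandibular libraries were above every other library except the sublingual library of animal 4, which held 4.90% and exceeded the submandibular library of animal 1.

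The genes that made up this share differed by tissue. In the 5 submandibular libraries other than that of animal 4, CST2 alone was 60.7 to 86.0% of the cystatin total. In the parotid gland CST5 was 68.4% ± 7.92 of the total, and in the liver CST3 was 59.1% ± 13.7 (SD, n = 6). In the sublingual libraries of animals 1 and 4, CSTB was 71.9 and 79.2% of the total, whereas in the other 4 sublingual libraries CST2 and CST3 were the main members.

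**Figure D1:**
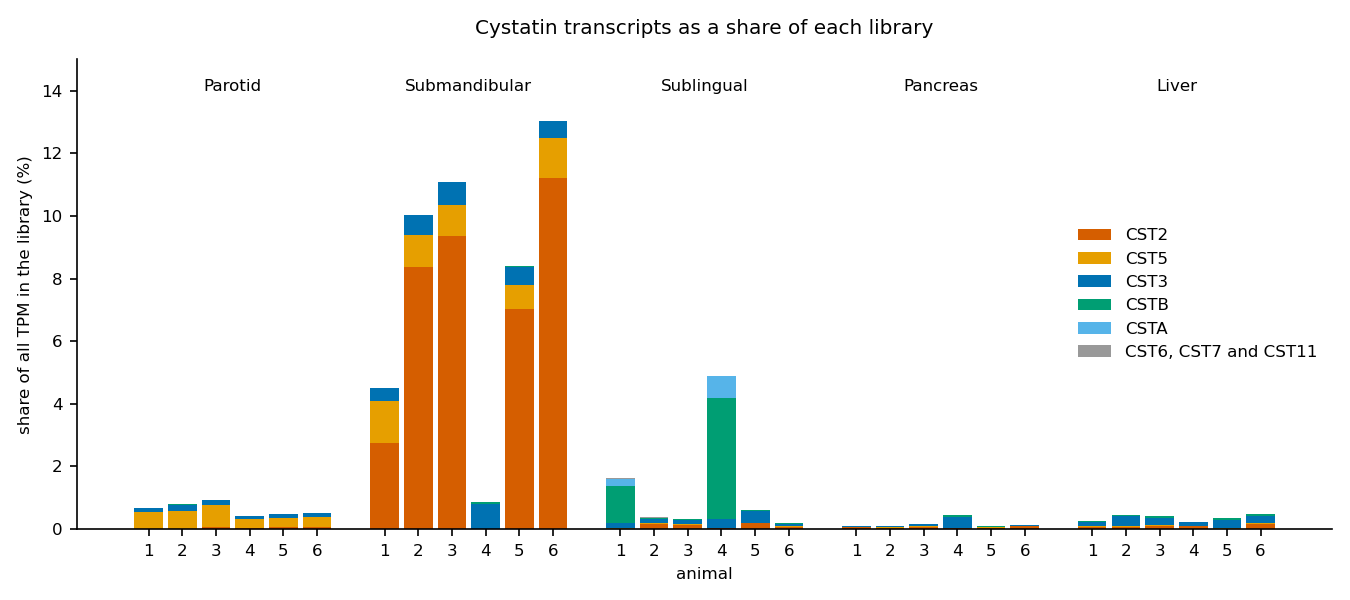
Share of all TPM (percent, y axis) taken by the cystatin genes in each library, by tissue and animal (x axis), with bars stacked by gene. CST2 fills most of the bar in 5 submandibular libraries, CSTB most of it in the sublingual libraries of animals 1 and 4, and the submandibular library of animal 4 reaches 0.874%.

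The first of the secreted members, CST2 (cystatin SA, one of the salivary cystatins), was the submandibular gland's most abundant cystatin. Its submandibular levels were 27453, 83757, 93503, 70.8, 70150 and 112245 TPM in animals 1 to 6 (mean 64530 ± 42537, SD, n = 6). It was the 4th to 6th most abundant gene of the library in 5 animals and ranked 1872nd in animal 4. Levels were 88.1 to 745 TPM in the parotid gland (median 443), 183 to 1800 TPM in the sublingual gland (median 1060), 338 to 853 TPM in the pancreas (median 499) and 133 to 1634 TPM in the liver (median 821). So 5 submandibular libraries were above all 24 libraries of the other tissues, and that of animal 4 was below all of them.

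CST2 was higher in the submandibular gland than in the pancreas by 5.36 on the log2(TPM + 1) scale (SE 1.03, adjusted p = 0.000715, limma), with 5 of 6 animals in that direction. Without animal 4 this difference was 6.88. It was also higher there than in the sublingual gland by 4.84 (adjusted p = 0.00165; 6.27 without animal 4) and than in the liver by 5.04 (adjusted p = 0.000265; 6.78 without animal 4 and 4.24 without animal 5). The parotid gland was lower than the submandibular gland by a log2 difference of -6.12 (adjusted p = 0.00342; -7.80 without animal 4), but this call was lost without animal 1, 2 or 3 (adjusted p = 0.0617, 0.0815 and 0.0841), in a fit of the 12 libraries of these glands alone (adjusted p = 0.313) and under quantile normalization (-3.98, adjusted p = 0.112).

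Among the other 4 tissues the order of mean CST2 levels was sublingual, liver, pancreas and parotid, and none of their 6 comparisons passed the threshold. The parotid level was below the sublingual level in all 6 animals, by -1.28 on the log2 scale (adjusted p = 0.308, limma; exact sign-flip p = 0.03125, and 0.125 adjusted over the 10 tissue pairs). Without animal 4 that difference was -1.53 (adjusted p = 0.0295), and without animal 2 it was -0.67 (adjusted p = 0.655). The sign turned under quantile normalization and when the 100 most abundant genes were left out of the scaling.

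CST5 (cystatin D, known as a protein of saliva and tears) was high in both the parotid and the submandibular gland. Its parotid levels were 5201, 5825, 7180, 2838, 2795 and 3201 TPM in animals 1 to 6 (mean 4507 ± 1832, SD, n = 6). The submandibular levels were 13563, 10046, 9972, 68.7, 7690 and 12630 TPM (mean 8995 ± 4848, n = 6). In the sublingual gland CST5 was at 97.1 to 239 TPM, in the pancreas at 83.6 to 189 TPM and in the liver at 175 to 237 TPM. All 6 parotid libraries and the 5 submandibular libraries other than that of animal 4 were above every library of the other 3 tissues, and the library of animal 4 was below all of them.

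Against the pancreas, CST5 was higher by 4.89 in the parotid gland (SE 0.67, adjusted p = 7.40e-06, limma, 6 of 6 animals) and by 5.01 in the submandibular gland (SE 0.67, adjusted p = 7.30e-06, 5 of 6 animals; 6.17 without animal 4), both on the log2 scale. Against the sublingual gland it was higher by 4.75 in the parotid gland (adjusted p = 1.45e-05) and by 4.88 in the submandibular gland (adjusted p = 2.74e-05; 5.95 without animal 4). Against the liver the differences were 4.35 (adjusted p = 6.29e-06) and 4.48 (adjusted p = 4.89e-06; 5.64 without animal 4). These 6 differences passed under every alternative that was run. None of the 3 comparisons among sublingual gland, pancreas and liver passed. Pancreas minus liver was -0.54 (adjusted p = 0.582, limma), with the pancreas lower in 6 of 6 animals (exact sign-flip p = 0.03125, and 0.0781 adjusted over the 10 tissue pairs).

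The parotid and submandibular levels of CST5 differed by -0.12 on the log2 scale (adjusted p = 1, parotid minus submandibular), with the parotid gland lower in 5 of 6 animals. Without animal 4 the difference was -1.22 (adjusted p = 0.00761), and without the 3 libraries of the submandibular gland and pancreas of animal 4 and the parotid gland of animal 6 it was -1.09 (adjusted p = 0.00926). The serous marker sum moved with CST5 in the library of animal 4, and its part in the result was not tested.

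CST2 and CST5 therefore stood in different proportions in the 2 glands. The ratio of CST2 to CST5 was 2.02 to 9.38 in the submandibular libraries without animal 4, and 0.0151 to 0.233 in the parotid libraries, with no overlap. Their log2 levels had a Pearson correlation of 0.571 over the 30 libraries, which share animals and tissues, so it is given as a description.

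Outside the glands where they were high, both genes kept low levels that were a small part of the high ones. Mean CST2 in the parotid gland, sublingual gland, pancreas and liver was 0.641, 1.61, 0.888 and 1.31% of its submandibular mean. Mean CST5 in the sublingual gland, pancreas and liver was 1.79, 1.62 and 2.29% of its submandibular mean. Genes known from 1 tissue were also listed outside it. The 8 acinar markers of the pancreas with a mean of at least 1000 TPM there were at 0.471 to 1.46% of their pancreas mean in the other 4 tissues. The 14 such liver markers were at 0.405 to 1.02% of their liver mean in the glands and at 0.714 to 11.8% (median 0.871%) in the pancreas. The 4 such salivary serous markers were at 1.39 to 3.02% of their submandibular mean in the pancreas and at 2.01 to 4.12% in the liver. Whether such levels come from the cells of the tissue itself was not tested.

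**Figure D2:**
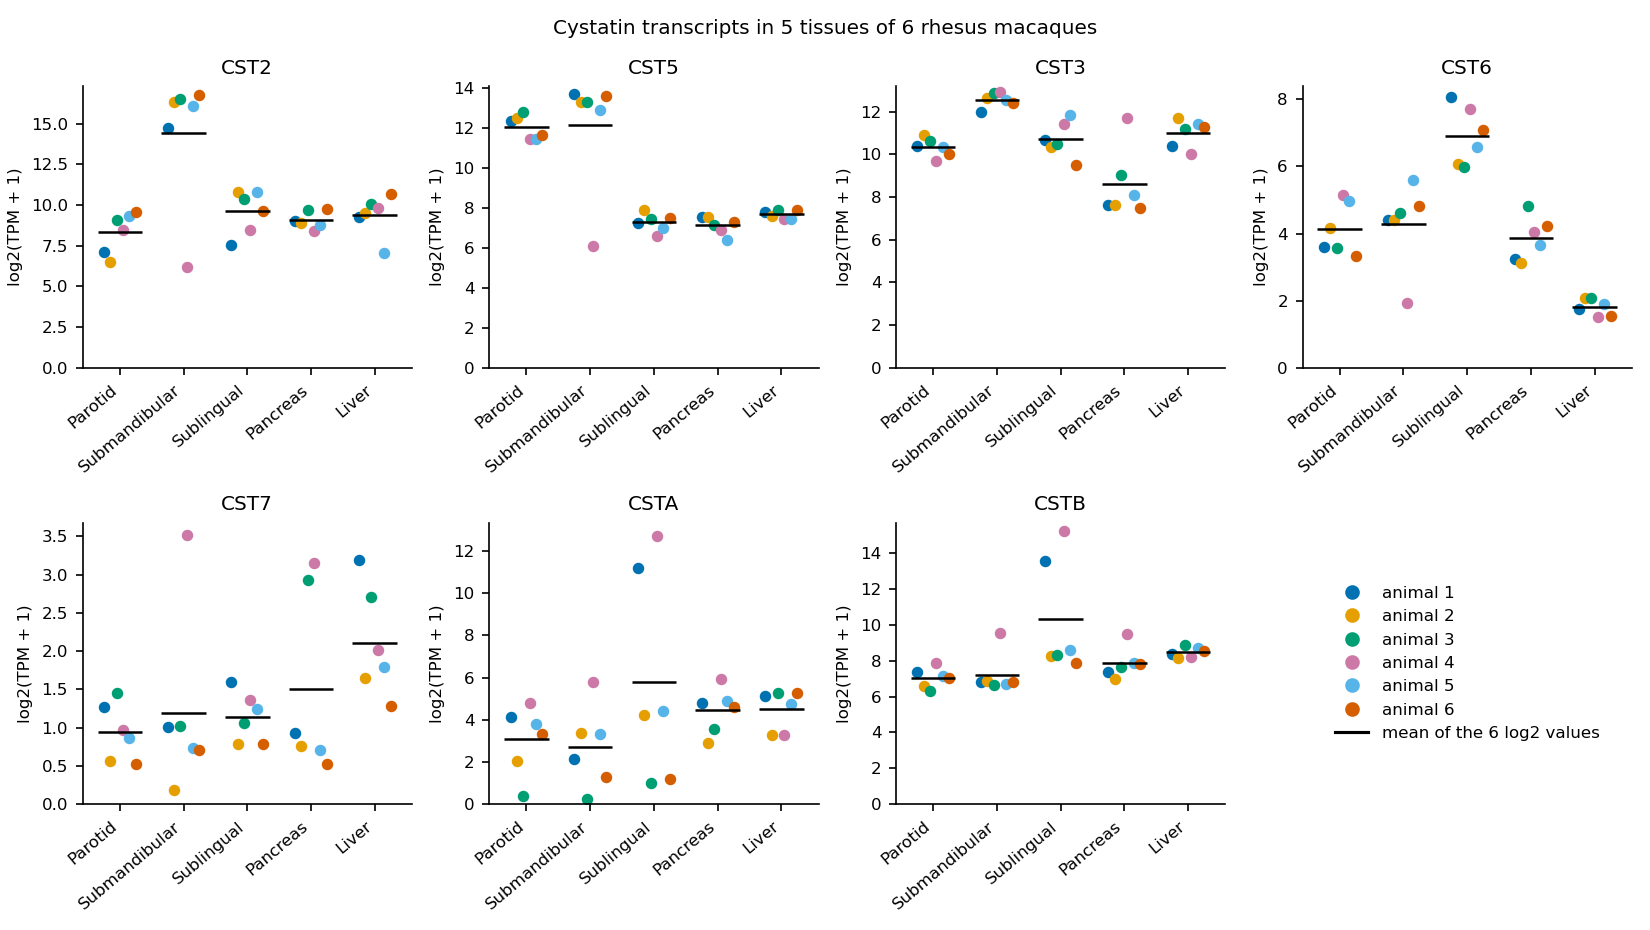
Level of the 7 tested cystatin genes, log2(TPM + 1) on the y axis, in each tissue (x axis), with 1 point per animal and a line at the mean of the 6 log2 values. Animal 4 stands apart in the submandibular gland for CST2, CST5, CST6, CST7 and CSTB, and animals 1 and 4 stand apart in the sublingual gland for CSTA and CSTB.

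CST3 (cystatin C, a secreted inhibitor made by most cell types) was present at over 100 TPM in all 30 libraries and was highest in the submandibular gland. Submandibular levels were 4075, 6437, 7393, 7803, 5987 and 5468 TPM in animals 1 to 6 (mean 6194 ± 1352, SD, n = 6). Pancreas levels were 195, 200, 525, 3320, 270 and 176 TPM (mean 781 ± 1251, n = 6). Levels were 1021 to 3294 TPM in the liver (median 2407), 726 to 3694 TPM in the sublingual gland (median 1533) and 834 to 1918 TPM in the parotid gland (median 1325). Every submandibular library, that of animal 4 included, was above every library of the other tissues. The submandibular library of animal 4 held few serous and many adipose and erythrocyte transcripts, whose part in its CST3 level was not tested. Without animal 4 the submandibular mean was 5872 TPM. The pancreas library of animal 4 was just above the highest liver library. The highest sublingual level was that of animal 5, the sublingual library with the most muscle transcripts, whose part in it was not tested.

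CST3 was higher in the submandibular gland than in the pancreas by 3.97 on the log2 scale (SE 0.50, adjusted p = 2.71e-06, limma, 6 of 6 animals). It was also higher there than in the sublingual gland by 1.85 (adjusted p = 0.00817) and than in the liver by 1.57 (adjusted p = 0.0107), in 6 of 6 animals each. The difference from the sublingual gland was lost without animal 3 (1.74, adjusted p = 0.0569). The parotid gland was lower than the submandibular gland in 6 of 6 animals, by -2.23 (adjusted p = 0.0400), a call that was lost without any 1 of animals 1, 2, 3, 5 and 6 (adjusted p = 0.151 to 0.282), in a fit of the 12 libraries alone (adjusted p = 0.161), without a filter (adjusted p = 0.103) and under quantile normalization (-1.60, adjusted p = 0.108).

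The pancreas was the lowest tissue for CST3. It was below the liver by -2.40 (adjusted p = 0.000433, limma; -3.22 without animal 4), and the sublingual gland was above it by 2.12 (adjusted p = 0.00339), each in 5 of 6 animals. The parotid gland was above the pancreas by 1.74 (adjusted p = 0.0171) in 5 of 6 animals. That call was lost without animal 1, 2, 3 or 5 (adjusted p = 0.0754 to 0.104) and in a fit of the 12 libraries alone (adjusted p = 0.0861), and without animal 4 the difference was 2.49 (adjusted p = 2.90e-06). The high CST3 value of animal 4 lay in the pancreas library with few acinar and many adipose and erythrocyte transcripts, and the part of this in the result was not tested.

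Liver, sublingual and parotid levels of CST3 did not pass in any of their 3 comparisons. Parotid minus liver was -0.66 (adjusted p = 0.254), with the parotid gland lower in 6 of 6 animals. It passed in a fit of the 12 libraries alone (-0.66, adjusted p = 0.0464) and without animal 4 (-0.73, adjusted p = 0.0427). Parotid minus sublingual was -0.38 (adjusted p = 0.532). Both differences turned sign under all 3 other scalings, and under quantile normalization they were 1.15 (adjusted p = 0.0373) and 1.41 (adjusted p = 0.0295).

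CST6 (cystatin M/E, a secreted inhibitor known from skin and glandular epithelia that also blocks legumain) had a different tissue pattern, with its highest levels in the sublingual gland. Sublingual levels were 267, 66.0, 62.0, 210, 93.9 and 135 TPM in animals 1 to 6 (mean 139 ± 83.4, SD, n = 6). Means were 23.6 ± 14.5 TPM in the submandibular gland, 18.8 ± 10.9 in the parotid gland, 14.8 ± 7.35 in the pancreas and 2.57 ± 0.61 in the liver. All 6 sublingual libraries were above the highest library elsewhere, at 47.7 TPM, and all 6 liver libraries were below every library of the other tissues except the submandibular library of animal 4, at 2.78 TPM.

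On the log2 scale CST6 was higher in the sublingual gland than in the pancreas by 3.06 (SE 0.49, adjusted p = 5.09e-05, limma) and than in the liver by 5.10 (adjusted p = 2.59e-09). The pancreas exceeded the liver by 2.04 (adjusted p = 0.00199), the parotid gland by 2.32 (adjusted p = 0.000322) and the submandibular gland by 2.48 (adjusted p = 0.000176). The parotid and the submandibular gland were lower than the sublingual gland by -2.78 (adjusted p = 0.000182) and -2.62 (adjusted p = 0.000613; -1.98 without animal 4). These last 2 differences missed the threshold under quantile normalization (adjusted p = 0.0871 and 0.113) and with the 100 most abundant genes left out of the scaling (adjusted p = 0.142 and 0.159).

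Each of these 7 CST6 differences had 1 sign in all 6 animals. Each reached the smallest p of the exact sign-flip test, 0.03125, and 0.0446 after adjustment over the 10 tissue pairs. Of 70 such tests over the 7 genes, 25 gave an exact p below 0.05 and only these 7 passed after adjustment. With 6 animals, a gene could pass only if at least 7 of its 10 overlapping tissue pairs reached the smallest p. Passing here therefore does not set CST6 apart by the size of its differences. Without the sublingual libraries of animals 1 and 4, which hold the highest CST6 values, sublingual minus pancreas was 2.41 and sublingual minus liver 4.45, parotid minus sublingual was -2.13 and submandibular minus sublingual -1.97, and all 4 passed. Parotid, submandibular and pancreas levels did not pass in any of their 3 comparisons.

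CST7 (cystatin F, which cytotoxic lymphocytes and myeloid cells make and which acts inside their lysosomes) was low everywhere, at 0.139 to 10.4 TPM, and reached 1 TPM in 17 libraries. Its liver levels were 8.16, 2.14, 5.52, 3.06, 2.47 and 1.43 TPM in animals 1 to 6. It was highest in the submandibular library of animal 4, at 10.4 TPM, while the other 5 ranged from 0.139 to 1.03 TPM. After it and the liver library of animal 1 came the pancreas libraries of animals 4 and 3, at 7.86 and 6.61 TPM against 0.442 to 0.906 TPM in the other 4. All 12 T and NK cell markers were in the table, and their sum was 148 TPM in that submandibular library against 4.39 to 9.63 TPM, and 59.9 and 57.1 TPM in the pancreas libraries of animals 3 and 4 against 3.76 to 6.53 TPM. The median level of 11 myeloid markers was 48.9 TPM in that submandibular library against 0.487 to 1.52 TPM, and 8.20 and 26.2 TPM in those pancreas libraries against 1.45 to 3.92 TPM. Their sum was 1107 TPM in that submandibular library, within the 320 to 1322 TPM of the other 5. With such low medians, the sums of those 5 rested on a minority of the 11 genes. In those pancreas libraries the sum was 271 and 677 TPM, against 71.9 to 352 TPM. The part of either list in the CST7 values was not tested.

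CST7 was lower than in the liver in the parotid gland by -1.17 (adjusted p = 0.00986, limma), in the submandibular gland by -0.91 (adjusted p = 0.0429) and in the sublingual gland by -0.97 (adjusted p = 0.0476), on the log2 scale. The parotid call was lost under all 3 other scalings (adjusted p = 0.0630 to 0.726), and the other two were lost under 11 and 9 of the 17 alternatives. Without animal 4, whose submandibular level was above its liver level, the submandibular difference was -1.39 (adjusted p = 0.000193), and with a pseudocount of 0.1 the parotid and submandibular differences were -1.76 and -1.58 (adjusted p = 0.00590 and 0.0133). The T and NK cell markers summed to 38.1 to 96.0 TPM in the liver and to at most 46.8 TPM in any parotid or sublingual library. The myeloid markers summed to 518 to 829 TPM in the liver and to 5130 to 35660 TPM in the sublingual gland. Their medians were 3.70 to 34.4 TPM in the liver and 2.30 to 15.1 TPM in the sublingual gland. The large sublingual sums thus rested on a minority of the listed myeloid genes.

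CST11 (a secreted cystatin known from the epididymis) was listed at 0 in 28 of 30 libraries. It was at 0.174 and 0.810 TPM in the sublingual libraries of animals 1 and 4. No comparison was made for it.

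The stefins, like the secreted CST6, were highest in the sublingual libraries of animals 1 and 4, but by a far wider margin. CSTA (stefin A) was at 2346, 17.8, 1.00, 6756, 20.6 and 1.33 TPM in the sublingual libraries of animals 1 to 6, and at 0.180 to 59.8 TPM in the 24 libraries of the other tissues. Animals 1 and 4 were more than 100 times above the other 4 sublingual libraries, which lay within the range of the other tissues. CSTB (stefin B, present in most cell types) was at 11796, 304, 316, 38810, 378 and 229 TPM in the same libraries. In animal 4 it was the 2nd and in animal 1 the 8th most abundant gene of the sublingual library.

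Elsewhere CSTB varied little across animals apart from animal 4. Its submandibular level was 100 to 115 TPM in 5 animals and 731 TPM in animal 4, and its pancreas level was 124 to 234 TPM in 5 animals and 721 TPM in animal 4. Liver levels were 361 ± 71.7 TPM and parotid levels 140 ± 53.5 TPM (SD, n = 6).

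On the log2 scale CSTB was higher in the sublingual gland than in the pancreas by 2.43 (SE 0.72, adjusted p = 0.0219, limma) in 6 of 6 animals, but by 0.62 (adjusted p = 0.378) without the sublingual libraries of animals 1 and 4. That call was also lost without animal 1 (1.69, adjusted p = 0.208) and without animal 2 (2.66, adjusted p = 0.0504), under 2 of the 3 other scalings (adjusted p = 0.0763 and 0.0717) and in a fit of the 12 libraries alone (adjusted p = 0.0930). Without animal 4 it was 1.77 (adjusted p = 0.0320). The parotid and the submandibular gland were lower than the sublingual gland by -3.24 (adjusted p = 0.00137) and -3.07 (adjusted p = 0.00339), also in 6 of 6 animals. Without those 2 libraries these differences were -1.43 (adjusted p = 0.00786) and -1.26 (adjusted p = 0.0247), and they missed the threshold under quantile normalization and with the top 100 genes left out of the scaling. Without animal 4 the parotid difference was -2.41, and without animal 1 the submandibular difference was -2.33. In 6 of 6 animals CSTB was lower in the parotid gland than in the pancreas (-0.81, adjusted p = 0.401, limma) and the liver (-1.43, adjusted p = 0.0901). The exact sign-flip p was 0.03125 for both, and 0.0625 adjusted over the 10 tissue pairs. The limma fit uses 1 spread of CSTB for all 10 pairs, so the sublingual libraries enter these 2 limma p-values as well. Sublingual minus liver was 1.82 (adjusted p = 0.0557), and 0.00 (adjusted p = 0.995) without the pair of libraries. It passed under all 3 other scalings, at 2.72, 1.97 and 1.95 (adjusted p = 0.0174, 0.0323 and 0.0279), and without animal 3, 5 or 6 (adjusted p = 0.0317 to 0.04995), while without animal 1 or 4 it was 1.15 or 0.77 (adjusted p = 0.283 and 0.347).

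CSTA passed in 1 comparison: the submandibular gland was lower than the sublingual gland by -3.11 (adjusted p = 0.0451, limma), in 5 of 6 animals. That call was lost under 12 of the 17 alternatives. Without animal 1 the difference was -1.92 (adjusted p = 0.330), without animal 4 -2.34 (adjusted p = 0.0540) and without animal 6 -3.74 (adjusted p = 0.0229), and without the 2 sublingual libraries the difference was -0.44 (adjusted p = 0.697). Parotid minus sublingual was -2.71 (adjusted p = 0.0596), and -0.04 (adjusted p = 0.969) without them. Sublingual minus pancreas was 1.35 (adjusted p = 0.512) and sublingual minus liver 1.29 (adjusted p = 0.441), and both were below 0 without them. Parotid minus pancreas was -1.37 (adjusted p = 0.379, limma), with the parotid gland lower in 6 of 6 animals (exact sign-flip p = 0.03125, and 0.3125 adjusted over the 10 tissue pairs).

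The squamous markers moved with the stefins. KRT13, a keratin of stratified squamous epithelium, was at 10694 and 34537 TPM in the sublingual libraries of animals 1 and 4 and between 0.778 and 130 TPM in the other 4. SPRR3, a cornified envelope protein of the same epithelia, was at 14720 and 38847 TPM against 0.662 to 136 TPM. The mucous marker sums of those 2 libraries were the lowest of the 6. The medians of the same 10 markers were 29.8 and 109 TPM there, within the 18.7 to 936 TPM of the other 4. The log2 levels of CSTA and CSTB had a Pearson correlation of 0.903 over the 30 libraries, and of 0.689 over the 28 libraries without these 2, both given as descriptions. The part of squamous epithelium in the stefin values was not tested.

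**Figure D3:**
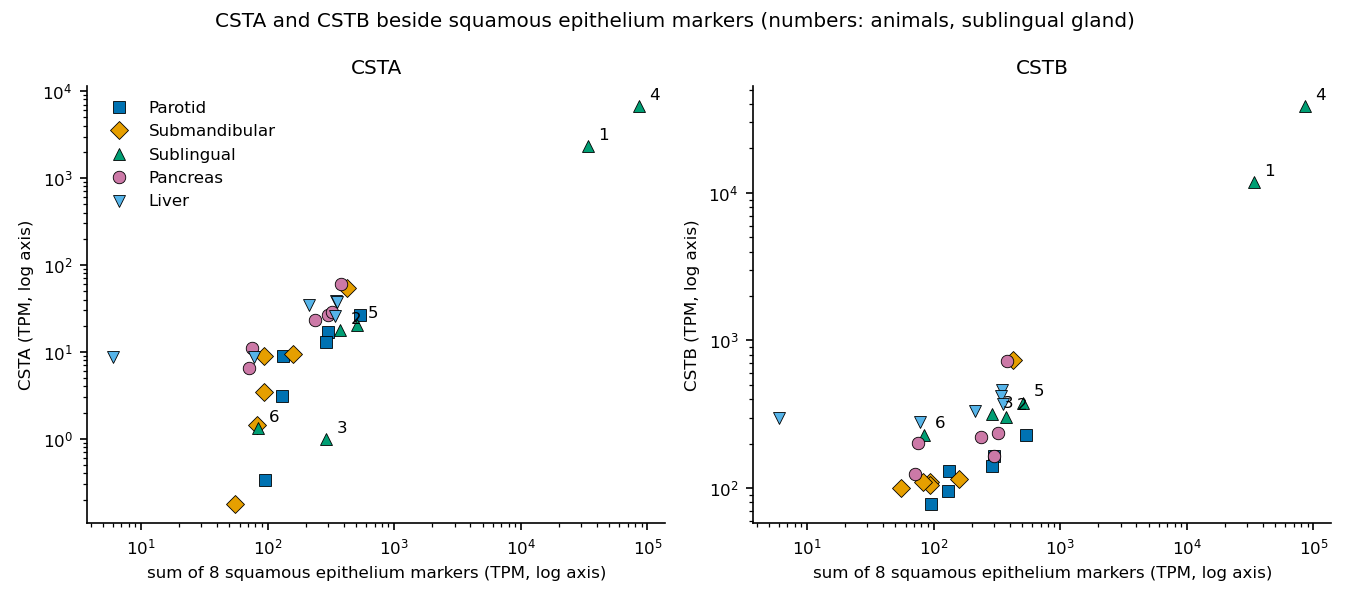
CSTA (left) and CSTB (right) in TPM on a log y axis, against the summed TPM of 8 squamous epithelium markers on a log x axis. Each point is 1 library, its shape and colour give the tissue, and numbers give the animal for the sublingual gland. The sublingual libraries of animals 1 and 4 lie alone at the upper right, at marker sums of 33925 and 85980 TPM.

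Counted over the 7 tested genes, cystatins passed in 10 tests among the 4 comparisons that the study names. Of these, 2 were higher in the parotid gland than in the pancreas (CST3 and CST5) and 0 lower, where 15.8% of all tested genes passed, 2.24% higher and 13.6% lower. In the submandibular gland 3 were higher than in the pancreas (CST2, CST3 and CST5) and 0 lower, beside 9.71% of all genes, 2.25% higher and 7.46% lower. In the sublingual gland 3 were higher (CST3, CST6 and CSTB) and 0 lower, beside 13.9% of all genes, 10.4% higher and 3.51% lower. Between pancreas and liver CST6 was higher and CST3 lower in the pancreas, beside 30.4% of all genes, 6.76% higher and 23.6% lower. The share of cystatins higher in the parotid and submandibular glands was above the share over all genes, while the 2 of 7 between pancreas and liver was near it.

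The median log2 difference of the 7 cystatins was -0.56 for the parotid gland, 0.44 for the submandibular gland and 1.35 for the sublingual gland against the pancreas, while that of pancreas minus liver was -0.54. Over all genes tested these medians were -0.48, -0.33, 0.23 and -0.36, in the same order. The first and the last of the cystatin medians were thus close to those of all genes, even though CST5 and CST3 moved far from them.

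Among the glands, 11 cystatin tests passed. Between parotid and submandibular gland these were CST2 and CST3, both lower in the parotid gland, where 0.347% of all genes passed, 0.133% higher and 0.214% lower. Between parotid and sublingual gland 1 was higher in the parotid gland (CST5) and 2 were lower (CST6 and CSTB), beside 41.5% of all genes, 0.893% higher and 40.6% lower. Between submandibular and sublingual gland 3 were higher (CST2, CST3 and CST5) and 3 lower (CST6, CSTA and CSTB), beside 27.9% of all genes, 0.753% higher and 27.2% lower. The members that were lower than in the sublingual gland were thus no more frequent than such genes overall in the parotid gland, at 2 of 7.

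Against the liver, 10 tests passed. In the parotid gland CST5 and CST6 were higher and CST7 lower, beside 58% of all genes, 4.61% higher and 53.4% lower. The submandibular gland had 4 higher genes, CST2, CST3, CST5 and CST6, and CST7 was lower, beside 50.7% of all genes, 5.68% higher and 45.1% lower. In the sublingual gland CST6 was higher and CST7 lower, beside 31.5% of all genes, 12.8% higher and 18.7% lower.

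**Figure D4:**
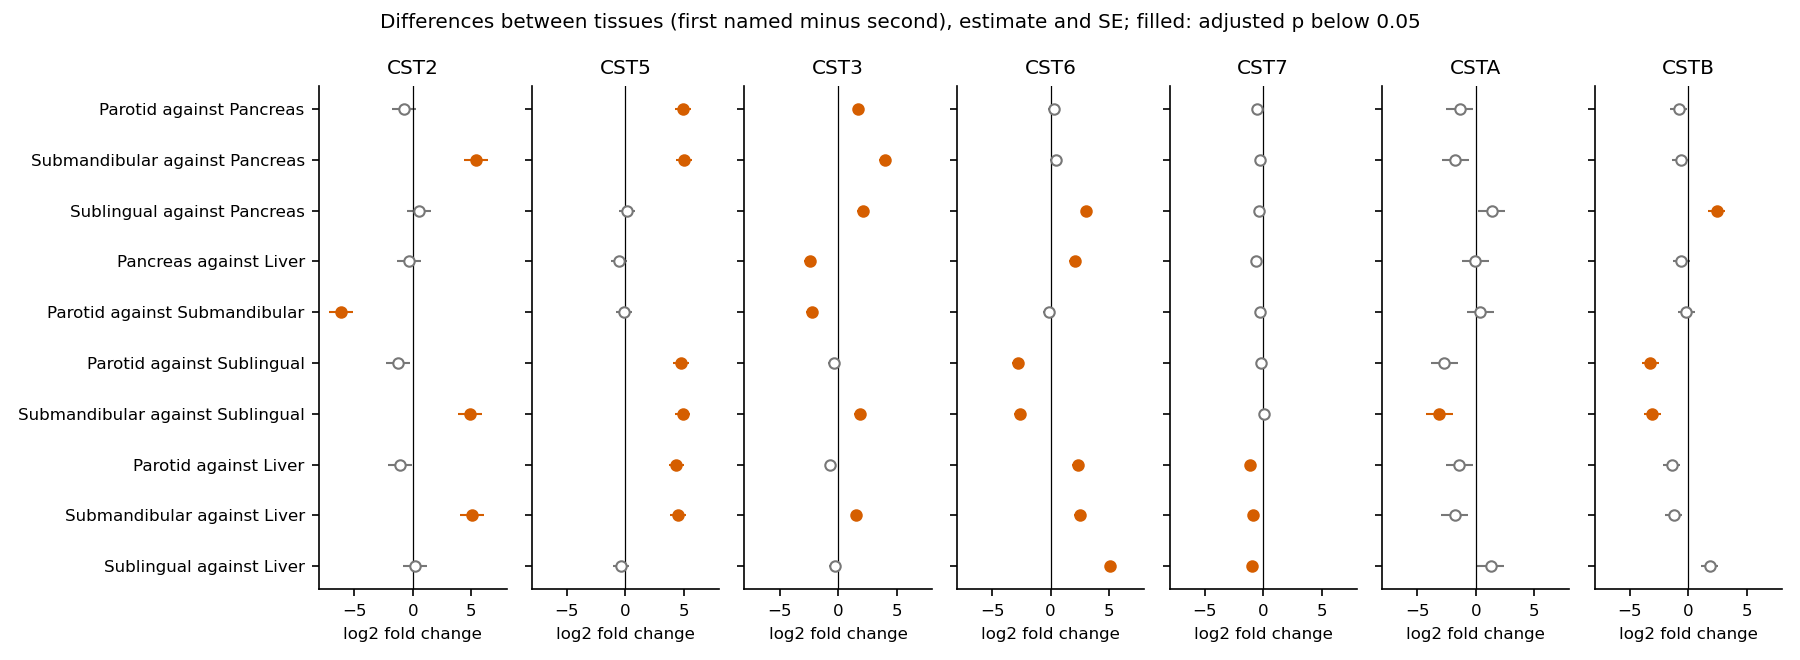
Log2 differences between tissues (x axis, first named minus second, in log2(TPM + 1) units) for the 7 tested cystatins in the 10 tissue comparisons (y axis). Points are limma estimates, bars their standard errors, and filled points passed an adjusted p of 0.05. CST2, CST5 and CST3 are filled to the right where the submandibular gland is set against the sublingual gland, the pancreas or the liver, and CST2 and CST3 to the left where the parotid gland is set against it. CST6 is filled wherever the sublingual gland or the liver is compared.

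The proteases that cystatins bind were mostly highest in the liver. All 12 listed enzymes, 11 cysteine cathepsins and legumain (LGMN), were tested. The most abundant over the 5 tissues were CTSZ (a lysosomal carboxypeptidase), CTSB (a lysosomal endo- and exopeptidase) and CTSF. In the liver CTSZ was at 255 to 1117 TPM (mean 659 ± 335, n = 6), and in the parotid gland at 21.5 to 57.1 TPM. Beside the liver, 11 of the 12 were lower in the parotid gland, 8 in the submandibular gland, 7 in the sublingual gland and 8 in the pancreas, and 1 was higher in each gland. Of all genes tested, 53.4, 45.1, 18.7 and 23.6% were lower than in the liver in these 4 tissues. A large part of the parotid and submandibular counts is thus shared with genes in general. The 1 protease higher in each gland stands beside 4.61, 5.68 and 12.8% of all genes in parotid, submandibular and sublingual gland. Against the pancreas, 3 were lower in the parotid gland (13.6% of all genes), 1 was higher in the submandibular gland (2.25%), and 1 was higher (10.4%) and 1 lower (3.51%) in the sublingual gland. Between glands, 5 of the 12 were lower in the parotid than in the sublingual gland, near the 40.6% of all genes, and 1 was lower in the submandibular than in the sublingual gland, below the 27.2% of all genes. By limma, 0 of 12 passed between the parotid and submandibular glands, where only 0.347% of all genes passed.

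The median log2 difference of the 12 proteases was -1.96 between pancreas and liver, beside -0.36 for all genes. It was -2.15 for parotid gland, -1.74 for submandibular gland and -1.49 for sublingual gland against liver, beside -0.84, -0.70 and -0.10 for all genes. In the submandibular library of animal 4 CTSZ was at 265 TPM against 31.7 to 45.9 TPM, and in the pancreas library of animal 4 at 298 TPM against 33.5 to 45.0 TPM, so these libraries stood apart for a protease as well as for its inhibitors.

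CTSV (cathepsin V, a close relative of CTSL known from thymus and squamous epithelia) had its highest levels in the gland where CST6 was high. Sublingual levels of CTSV were 134, 341, 158, 374, 113 and 95.3 TPM in animals 1 to 6 (mean 203 ± 122, SD, n = 6), and no library of another tissue exceeded 11.9 TPM. It was above the pancreas by 5.34 on the log2 scale (adjusted p = 5.05e-11, limma, 6 of 6 animals). Unlike the stefins, CTSV was high in all 6 sublingual libraries. It was also higher in the submandibular gland than in the pancreas, by 1.06 (adjusted p = 0.0430), in 5 of 6 animals. CTSO was the gene that was lower in the sublingual gland than in the pancreas, by -1.42 (adjusted p = 0.0454).

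**Figure D5:**
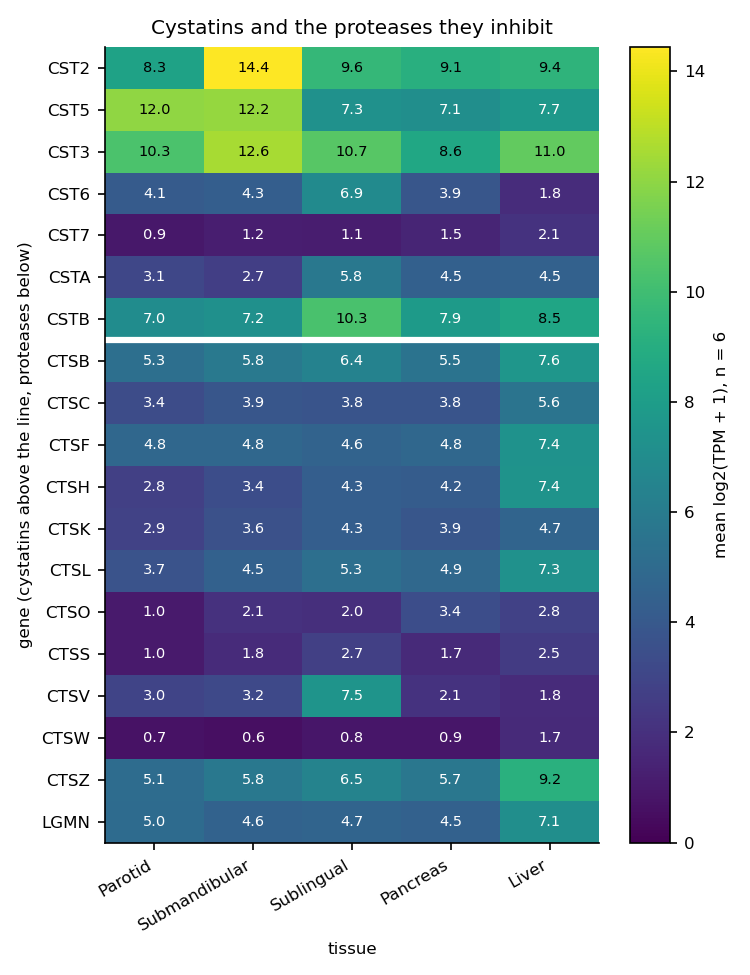
Mean log2(TPM + 1) over 6 animals (colour and printed value) for 7 cystatins above the white line and 12 proteases below it (y axis), by tissue (x axis). Of the cystatins, 6 have their highest mean in the submandibular or sublingual gland and CST7 in the liver, while 9 of the 12 proteases have their highest mean in the liver, CTSS and CTSV in the sublingual gland and CTSO in the pancreas.

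Other genes of the cystatin superfamily, several of them known as liver secretory proteins, were followed as a list of 11 symbols outside the member rule. Of these, 8 were in the table and 7 were tested. AHSG (fetuin A), HRG (a plasma glycoprotein that binds heparin) and KNG1 (kininogen) were the most abundant, with liver means of 2350 ± 1655, 1825 ± 850 and 479 ± 201 TPM (n = 6). Between pancreas and liver 5 of the 7 were lower and 1 higher in the pancreas, beside 23.6 and 6.76% of all genes. AHSG, HRG and KNG1 were lower there by -6.52, -6.69 and -6.47 on the log2 scale (adjusted p = 2.93e-14, 3.79e-16 and 5.52e-17, limma). FETUB (fetuin B) was at 30.7 to 70.6 TPM in 5 pancreas libraries and 3.31 TPM in that of animal 4, and it was lower in each gland than in the pancreas, by -3.55, -3.57 and -3.38 in parotid, submandibular and sublingual gland. RARRES1 was the single gene of this list that was higher in the sublingual gland than in the pancreas, by 1.78 (adjusted p = 0.0295).

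Secreted inhibitors of other protease classes were followed as a list of 20 symbols, with 18 in the table and 15 tested. In the sublingual gland 8 were higher and 1 was lower than in the pancreas, beside 10.4 and 3.51% of all genes. WFDC2, a small secreted protein with protease inhibitor domains, was at 624 to 2388 TPM in the sublingual gland and 20.4 to 52.5 TPM in the pancreas (log2 difference 5.63, adjusted p = 1.93e-09, limma). SPINK1, the pancreatic trypsin inhibitor, was lower in the sublingual gland by -5.61 (adjusted p = 2.13e-06). In the parotid and the submandibular gland SPINK1 was lower than in the pancreas by -6.21 and -6.27. In each of these glands 1 inhibitor of the 15 was higher and 3 were lower than in the pancreas. Of all genes, 2.24% were higher and 13.6% lower in the parotid gland, and 2.25% and 7.46% in the submandibular gland. Beside the sublingual gland, 11 of the 15 were lower in the parotid and 10 in the submandibular gland, and 0 were higher in either. Of all genes, 40.6 and 27.2% were lower and 0.893 and 0.753% higher in these 2 comparisons, so 0 of 15 higher is near the share over all genes. SERPINA1, the plasma inhibitor of elastase, was the most abundant of the list through the liver, at 5182 to 15855 TPM there. SPINK7, an inhibitor known from squamous epithelium of the oesophagus, was at 4508 and 14161 TPM in the sublingual libraries of animals 1 and 4 and between 0 and 36.0 TPM in the other 4, the same 2 libraries as for the stefins.

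Genes whose log2 levels followed those of a cystatin most closely over the 30 libraries differed by member. They are given as a description, since libraries share animals and tissues and the tissue means carry much of each value. CST5 was most like BPIFA2 (Pearson r 0.979), a secreted salivary protein, SMR3B (0.971), another salivary protein, and SLC37A2 (0.928). CST2 was most like BPIFA4 (0.920), of the same family as BPIFA2, followed by TLX1 (0.746) and MUC19 (0.707). BPIFA4 was at 1042 to 2362 TPM in 5 submandibular libraries and 2.34 TPM in that of animal 4, so it shared the gap seen for CST2.

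CST6 was most like RAB25 (0.943), an epithelial trafficking GTPase, C19H19orf33 (0.914) and the tight junction gene CLDN4 (0.907). CSTA was most like ADA (0.983), ECM1 (0.975) and KRT78 (0.973), a keratin, and CSTB most like KATNBL1 (0.975), TREX2 (0.970) and ANXA9 (0.963). ADA was at 4893 and 10880 TPM in the sublingual libraries of animals 1 and 4 and at most 42.2 TPM in the other 4, as the stefins were high in those 2 alone. CST3 was least tied to another gene, with DUSP1 at 0.853, ALG9 at 0.782 and NET1 at 0.778.

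Several secreted cystatin genes are neighbours in the genome. In RefSeq's gene table (assembly T2T-MMU8v2.0), CST5, CST3 and CST11 lie in a run of 14 protein-coding genes from CST5 to CSTL1, of which 9 were in the deposited table. The symbol CST2 was absent from that table, where 7 of the 8 members matched. The gene next to CST3 in that order, LOC703642, carries no name, falls outside the member rule and was picked after its values were seen. It was at 12375, 22916, 23105, 7.97, 28020 and 19065 TPM in the submandibular libraries of animals 1 to 6, and between 37.4 and 677 TPM elsewhere.

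LOC703642 was higher in the submandibular gland than in the pancreas by 5.20 (adjusted p = 0.00175, limma), and its log2 level correlated with that of CST2 at 0.980 over the 30 libraries. The library of animal 4 was again below all others. Another neighbour, LOC713067, was at 3.44 to 22.9 TPM in the submandibular libraries of 5 animals, listed at 0 in animal 4, and between 0 and 1.93 TPM elsewhere. No sequences were compared here, and whether CST2 and LOC703642 are separate genes or overlapping models of 1 gene was not tested. How reads that match several transcripts were divided is not given in the sources used here, so the single values of these clustered genes are uncertain.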

How the data were processed

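RNA sequencing covered 30 libraries, 5 tissues from each of 6 rhesus macaques. The authors deposited 1 table of TPM values, whose name points to kallisto, a tool that the submitters' processing notes also list. The transcriptome, the genome build, the tool versions and the summing from transcripts to genes are not given in the sources used here. TPM columns sum to a fixed total, so depth is unknown, no interval that needs it is given, and a rise in abundant genes lowers the rest. No column was left unused (0).

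A gene was tested if it reached 1 TPM in 6 or more libraries (13550 genes). Values were analysed as log2(TPM + 1), with a pseudocount of 1, by limma 3.58.1 (R 4.3.3), with tissue and animal in 1 model of all 30 libraries, a variance trend, and Benjamini-Hochberg adjustment over all genes within each of 10 tissue pairs (threshold 0.05, two-sided). Fold changes on this scale understate the change of low genes. The fit uses 1 spread per gene for all 10 tissue pairs. Libraries of other tissues that stand apart therefore enter the p-value of a pair. Within-animal differences of single genes were also tested by exact two-sided sign-flip permutation (64 patterns, smallest p 0.03125), adjusted over 10 pairs.

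The animal block follows the labels, which give the same animal in every tissue. Deviations from tissue means correlated at 0.161 on average for libraries of 1 animal (60 pairs) and at -0.0186 for different animals (300 pairs). No pair of libraries held identical values (0), and the highest correlation was 0.979. On simulated data for parotid gland against pancreas (13550 genes), the fit recovered 86.2, 96.8 and 100% of genes changed by 2, 3 and 4 on the log2 scale, and 3.57% of its calls were false. The simulated noise had 1 spread per gene for all tissues and no library that stood apart. These rates therefore need not carry over to the real libraries.

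All members are named. For members whose mean reached 10 TPM in some tissue, the 3 most correlated genes with a symbol other than a LOC identifier are named. From the pathway lists, the 3 most abundant genes and the called genes with the largest change are named, and single markers where they check a label. Members and lists were chosen with earlier results of these data known. The 17 alternatives covered the animal block, the samples fitted, scaling, filter, pseudocount, variance trend and left-out libraries; trimmed-mean factors trimmed 30% of ratios and 5% of levels. Leaving out the sublingual libraries of animals 1 and 4 was chosen after seeing the data. Symbols were matched to a RefSeq table and an Ensembl name table, and 7 and 8 of the 8 members matched.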

Additional observations from a re-analysis of the deposited data

Results flagged for a closer look

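Of 35 sets of 6 libraries (7 genes in 5 tissues), 7 held a library far from the other 5, where chance gives about 1 in 20 (1.75 sets). All 7 came from only 2 libraries, the submandibular and the pancreas library of animal 4. Levels of several genes in 1 library are not independent, so the 7 sets are not 7 separate events beside the 1.75. In its submandibular gland CST2 was at 70.8 TPM (nearest other library 27453), CST5 at 68.7 TPM (nearest 7690) and CST6 at 2.78 TPM (nearest 20.2), each the lowest of its set. In the same library CST7 was at 10.4 TPM (nearest 1.03) and CSTB at 731 TPM (nearest 115), each the highest. In its pancreas CST3 was at 3320 TPM (nearest 525) and CSTB at 721 TPM (nearest 234), again the highest. Serous or acinar markers were low and adipose and erythrocyte markers high in these 2 libraries (erythrocyte sums 10384 and 13447 TPM). The median myeloid marker was at 48.9 and 26.2 TPM (others at most 1.52 and 8.20), and the myeloid sums were 1107 and 677 TPM (others at most 1322 and 352). The part of these markers in the values was not tested. CST3 in the submandibular library of animal 4, at 7803 TPM, was not far from the others. The rule sets an extreme against its nearest neighbour, so 2 libraries that stand apart together are not flagged. This held for the sublingual libraries of animals 1 and 4, at 2346 and 6756 TPM of CSTA and 11796 and 38810 TPM of CSTB. Across 70 comparisons of females with males, 0 had every animal of one sex in one direction and every animal of the other in the opposite direction.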

How the results depend on the processing

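Of 31 tests that passed, 18 passed under all 17 alternatives, 0 changed sign, 10 were lost under at least 1 of 3 scalings and 8 when some animal was left out. Of 39 that did not pass, 27 changed sign under some alternative and 12 passed under some. Counts of passing tests among the glands (11) were 5 under quantile normalization, 6 relative to all but the top 100 genes, and 7 to 12 with 1 animal left out (7 without animal 3). Against the pancreas and for pancreas against liver (10) they were 8 to 11, and against the liver (10) 8 to 14, with 1 animal left out. Exact within-animal tests with p below 0.05 (25) were 14 relative to all but the top 100 genes. The causes were not tested.

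Without the replicate block for animal, the 3 counts were 9, 10 and 8. Of single calls, that fit ended CSTB between sublingual gland and pancreas (adjusted p = 0.0631), CSTA between submandibular and sublingual gland (0.0947), and CST7 between submandibular gland and liver (0.102) and between sublingual gland and liver (0.121).

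None of the tests that changed sign had passed. Under quantile normalization, CST2 was 0.30 for parotid gland against pancreas and 0.33 against sublingual gland, CST5 0.69 for parotid against submandibular gland, and CST3 1.41 for parotid against sublingual gland and 1.15 against liver. Relative to all but the top 100 genes these were 0.013 and 0.19 for CST2, and 1.10 and 0.96 for CST3. Under trimmed-mean scaling CST5 was 0.048, and CST3 0.36 and 0.23. Without animals 1, 2, 5 or 6, CST5 for parotid against submandibular gland was 0.13, 0.010, 0.15 and 0.25, and with 1 animal left out it ranged from -1.22 to 0.25. Without animal 4, CSTA for sublingual gland against liver was -0.34, and with 1 animal left out it ranged from -0.34 to 2.41. Without the sublingual libraries of animals 1 and 4, CSTA was -1.32 for sublingual gland against pancreas and -1.38 against liver.

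TPM carries no depth, so low values such as those of CST7 and CST11 have no counting error attached.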
